A study of Mus musculus with 35 samples.

Results

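Lung metastases were compared with primary pancreatic tumors in the libraries labelled Smad4 on of a mouse model of pancreatic ductal adenocarcinoma (PDAC), by RNA-sequencing of sorted tumor cells. The comparison took every library with that label from either organ, which gave 6 lung and 5 pancreas libraries, 11 of the 35 in the series. The lung libraries were 2 collected on day 7 and 4 on day 14, and the pancreas libraries were 2 from day 7 and 3 from day 14, counted from the withdrawal of doxycycline (Dox). The tumor cells were KC-shSmad4 lines, which carry *Ptf1a*-Cre, a Cre-activated oncogene, a constitutive mKate2 reporter with the rtTA3 transactivator, and a Dox-inducible hairpin against *Smad4* linked to green fluorescent protein, with 2 independent hairpins in use across the study. Which line or hairpin a library came from was not given in the sources used here. The lines were marked with firefly luciferase and injected into female *Foxn1* nu mice, aged 6 to 8 weeks, that were already on Dox, so that tumors first grew with *Smad4* silenced. Primary tumors were seeded in the tail of the pancreas in Matrigel and lung metastases through the tail vein. In the Smad4 on arms Dox was withdrawn after 4 weeks for the pancreas and after 6 weeks for the lungs, and mKate2-positive cells were then sorted after enzymatic digestion. Organ, route of injection and time on Dox therefore changed together and cannot be told apart. The nude host lacks most T cells, and tail-vein seeding bypasses the steps by which a tumor leaves the pancreas.

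SMAD4 is the shared partner of the SMAD proteins that carry transforming growth factor-β (TGFβ) and bone morphogenetic protein signals to the nucleus, and it is often lost in PDAC. TGFβ drives matrix deposition and epithelial-to-mesenchymal transition (EMT), and in the pancreas the tumor is embedded in a dense fibroblast-rich stroma. The lung differs as a site: its alveoli are lined by type 1 cells for gas exchange and type 2 cells that make surfactant, with club and ciliated cells in the airways and resident alveolar macrophages.

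*Smad4* stood at 15.8 to 20.3 CPM (counts scaled to the library total by the trimmed mean of M-values), with a median of 17.8, in the 6 lung libraries. It was 22.4, 20.0, 19.3, 22.3 and 21.4 CPM in the 5 pancreas libraries. Both ranges lay below the 69.9 to 120 CPM of the lung and 94.5 to 114 CPM of the pancreas libraries labelled Smad4 off, so the libraries labelled on held the lower *Smad4* mRNA, against their label. Groups are named below by label only. The Dox state of each library, and its days since withdrawal, rest on the labels and the study's methods and were not tested. Between the organs the log2 fold change of *Smad4* was -0.26 ± 0.10 (SE; adjusted P = 0.0701). The 11 libraries held 11885461 to 20469966 counts (median 16934293), so that 3 counts corresponded to 0.147 to 0.252 CPM, and no pair of libraries was identical. Correlations of log2 CPM were 0.943 between the day 7 lung libraries, 0.963 to 0.988 within day 14 lung, 0.986 to 0.992 within the pancreas groups and 0.902 to 0.955 between the organs. Counts for the mitochondrial gene *mt-Co3* were present in 3 of the 6 lung libraries (day 7 replicate 2, day 14 replicates 3 and 4) and in 0 of the 5 pancreas libraries, and in 10 of the 35 libraries of the series. List counts that moved by more than 2 genes without those 3 lung libraries are given both ways, and the part of this split in any difference was not tested. *Xist*, transcribed in female cells, was 2.41 to 16.6 CPM in lung and 6.94 to 42.6 CPM in pancreas (log2 fold change -1.15 ± 0.56, adjusted P = 0.143). Of 4 Y-linked genes, 3 had 0 counts in all 11 libraries, although the embryonic stem cells behind the model were male, and the cause was not tested. Nothing in the labels ties libraries to animals or lines, so P values measure the spread between libraries.

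Of 14424 genes tested, 851 (5.9%) were higher and 1033 (7.16%) lower in lung metastases than in primary tumors by more than 2-fold at an adjusted P under 0.05 (edgeR quasi-likelihood test with day as a covariate and Benjamini-Hochberg adjustment). Those 2 shares are the background for every count in the libraries labelled on, and a gene is called higher or lower by this rule. In all 14424 genes, 7.22% had every lung library above every pancreas library and 9.98% the reverse. The libraries labelled Smad4 off, 8 from lung and 5 from pancreas, came with no library in common. There 1783 of 14634 genes (12.2%) were higher and 1128 (7.71%) lower, 19.9% in all, against 13.1% in the libraries labelled on. Of the 851 genes higher in the first comparison, 704 (82.7%) were also called higher in the second and 0 lower, and of the 1033 lower, 806 (78.0%) were also lower and 2 higher. As a share of the calls in the labelled off libraries, those shared genes made up 39.5% of the higher and 71.5% of the lower genes. Without the 3 lung libraries with *mt-Co3* counts, 1162 genes were higher and 1153 lower.

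RNA of lung cell markers was present in every lung library. *Sftpc* (ENSMUSG00000022097, chr14:70520949-70524081), the surfactant protein that only type 2 alveolar cells make, stood at 57.5, 154 and 306 CPM (lowest, median and highest of the 6 lung libraries) and had 0 counts in all 5 pancreas libraries. Lung was thus at least 4550-fold higher, taking 3 counts over the pancreas group as the floor. *Nkx2-1*, the lung epithelial transcription factor, was at 0.656, 1.03 and 1.35 CPM against 0 counts in the pancreas libraries, at least 24.5-fold higher. *Scgb1a1*, the club cell secretoglobin, was at 4.65, 20.6 and 79.6 CPM in lung, with 1 count in the 5 pancreas libraries together. *Sec14l3*, a ciliated airway marker, ran from 2.29 to 6.62 CPM in lung and also had 1 count in pancreas. These 4 genes marked every lung library and essentially no pancreas library. *Sftpc* in the labelled off libraries ran from 34 to 235 CPM in lung and was 0 in all 5 from pancreas.

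Of the 10 type 2 cell markers tested, 7 were higher and 0 lower, with a median log2 fold change of 3.05. Some members were well above 0 in pancreas. *Sftpd*, a collectin of the surfactant, was at 43.3, 127 and 272 CPM in lung against 25.5, 19.0, 29.9, 63.9 and 54.0 CPM in pancreas (log2 fold change 1.80 ± 0.36, adjusted P = 0.00406), and *Etv5*, an ETS factor of type 2 cells and a target of receptor kinase signaling, was below its pancreas range in every lung library (29.8 to 46.4 against 59.7 to 93.0 CPM) at -0.89, short of the fold threshold. Of the type 1 markers, 5 of 10 were higher and 1 lower: the chloride channel gene *Clic5* rose by 2.56 ± 0.37 and *Hopx*, a homeobox cofactor, fell by 1.40 on the log2 scale. Of 7 club cell markers 2 passed the count filter, and both were higher. Without that filter 4 of the 7 were higher and 1 lower. *Cckar*, listed here with the club cell markers and removed by the filter, lay below pancreas in every lung library. Which cells held it in the pancreas libraries was not tested. Of 4 ciliated markers tested 1 was higher, as were 5 of 7 alveolar macrophage markers tested. The latter count was 3 of 5 without lung day 7 replicate 1 or day 14 replicate 1, 2 or 3, where fewer markers passed the filter. Without the filter 4 of the 10 alveolar macrophage markers were higher and 1 lower. Among the alveolar macrophage markers *Fabp4*, a lipid chaperone that endothelium and fat also hold, was lower (-2.12, named after its values were seen). *Chil3*, a chitinase-like protein of alveolar macrophages, was at 0.398, 2.17 and 12.2 CPM in lung against 0 to 0.226 CPM in pancreas.

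**Figure D1:**
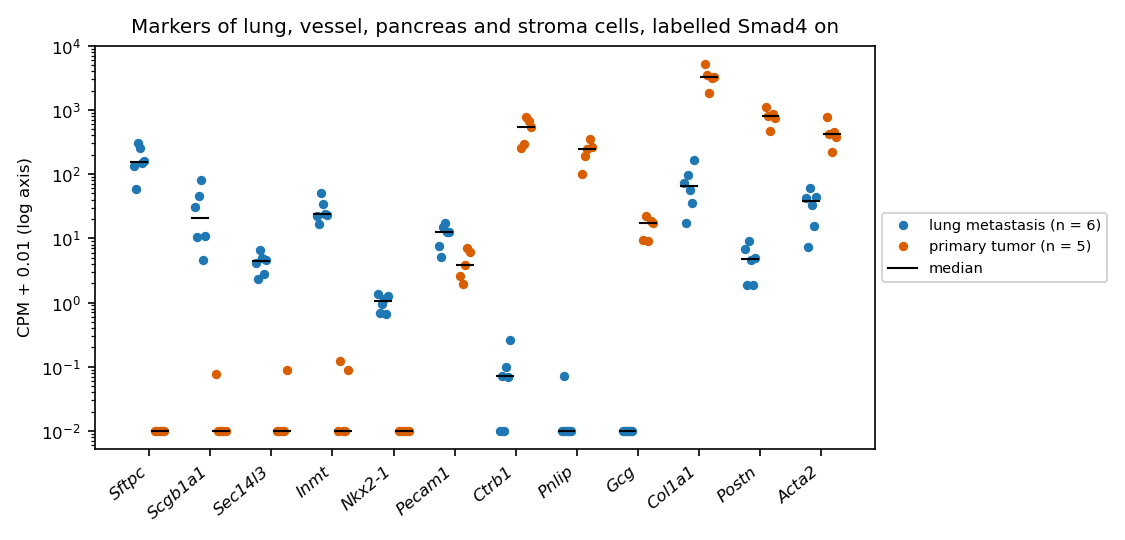
Levels of marker genes of host and stromal cell types in each library labelled Smad4 on, as CPM plus 0.01 on a log axis; points are libraries (6 lung, 5 pancreas) and bars the medians. *Sftpc* was 57.5 CPM or more in every lung library and 0 in every pancreas library, and *Ctrb1* ran the other way.

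The pancreas libraries carried RNA of acinar and islet cell markers. *Ctrb1* (ENSMUSG00000031957, chr8:111686519-111691010), encoding the digestive enzyme chymotrypsinogen of acinar cells, was at 253, 298, 765, 667 and 543 CPM in pancreas and at 0 to 0.249 CPM in lung (log2 fold change -12.60 ± 0.35, adjusted P = 3.1e-09). *Pnlip*, pancreatic lipase, was at 102 to 352 CPM in pancreas with 1 count in the 6 lung libraries together. The islet hormone genes *Gcg* (glucagon, 8.92 to 22.1 CPM in pancreas) and *Ins2* (insulin, 3.83 to 14.1 CPM) had 0 counts in lung, at least 552-fold and 318-fold lower. Of 17 acinar genes tested 16 were lower (median log2 fold change -10.48). Of 8 islet genes 4 passed the count filter, and 3 of those were lower. Without the filter 7 of the 8 were lower and 0 higher. Genes with 0 counts in lung passed the filter through the pancreas libraries alone, so counts over them are descriptive. The exception among the acinar genes was *Reg1*, a regenerating-family lectin, with 160 to 1080 CPM in lung and 157 to 500 CPM in pancreas.

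Markers of other host cell types divided between the organs. Endothelial markers were higher in lung in 7 of 11 cases with 0 lower: their summed level was 61.4 to 134 CPM in lung and 30.3 to 44.1 CPM in pancreas. *Calcrl*, the adrenomedullin receptor of endothelium, was at 6.31, 8.27 and 13.1 CPM in lung against 0.532, 0.170, 4.02, 1.22 and 1.48 CPM in pancreas (2.84 ± 0.48). *Pecam1*, an adhesion molecule of endothelium, rose by 1.38 ± 0.20. Of 11 macrophage and monocyte markers, 1 was higher (*Lyz2*, lysozyme, 1.85) and 5 lower, among them the complement gene *C1qa* (-1.49 ± 0.32), and that list's sums overlapped (48.3 to 371 against 87.3 to 214 CPM). The number of lower macrophage markers depended on single libraries: it was 3 without pancreas day 7 replicate 1 or 2, 2 without pancreas day 14 replicate 2 or lung day 14 replicate 3, 1 without pancreas day 14 replicate 3, and 2 without the 3 lung libraries with *mt-Co3* counts. Neutrophil markers depended on the libraries used: of 5 tested, *Mmp9*, a gelatinase, was lower (-2.91) in all 11 libraries with none higher, and 6 of 7 were higher and 1 lower without the 3 lung libraries with *mt-Co3* counts. Of the remaining cell types, 2 of 3 mesothelial markers tested were higher (*Upk1b* 4.50 and *Gpm6a* 2.23), as was 1 of 2 hepatocyte markers tested (*Apoa1* 2.49). The hepatocyte call was lost when any of 7 of the 11 libraries, or the 3 with *mt-Co3* counts together, was left out. The count filter removed the other members of these lists of 6 and 8 genes. Without it 2 mesothelial markers were higher and 1 lower, and 1 hepatocyte marker was higher and 0 lower. Lower were 3 of 7 smooth muscle markers and 3 of 7 red cell and platelet markers, with the platelet chemokine *Pf4* higher (1.22). The smooth muscle count was 1 without pancreas day 7 replicate 2 or day 14 replicate 3. The red cell and platelet count was 1 without pancreas day 14 replicate 1 and 0 without the 3 lung libraries with *mt-Co3* counts. The B cell receptor genes *Cd79a* (0.70) and *Cd79b* (0.39) were not called. In sorted bulk RNA, fewer cells of a type and less RNA per cell cannot be told apart.

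Fibroblast markers were lower as a group. All 11 tested were lower in lung, at a median log2 fold change of -4.78, and their summed level was 176 to 1640 CPM in lung against 9490 to 26000 CPM in pancreas. *Col1a1* (ENSMUSG00000001506, chr11:94936224-94953042), the main chain of fibrillar collagen I, was at 17.5, 64.9 and 164 CPM in lung and at 5200, 3440, 1830, 3120 and 3270 CPM in pancreas. The groups did not overlap, and the fold change was -5.58 ± 0.58 on the log2 scale (adjusted P = 9.07e-05). *Postn*, the matricellular protein periostin, was at 1.85 to 8.93 CPM in lung and 468 to 1100 CPM in pancreas (-7.36 ± 0.47). *Col3a1*, collagen III, was at 116 to 336 CPM in 5 lung libraries and at 1290 CPM in the sixth, day 14 replicate 4, still under the 4880 to 14400 CPM of pancreas. Day 14 replicate 4 was also the highest lung library for the fibroblast sum. *Acta2*, the smooth muscle actin of myofibroblasts, fell by 3.73 on the log2 scale.

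Among the 15 lower genes with the lowest adjusted P that belonged to no cell type list, several are known from fibroblasts or from the exocrine pancreas. *Crabp1*, a retinoic acid binding protein of some fibroblasts, was at 67.2 to 207 CPM in pancreas with 1 count over the 6 lung libraries. *Itgbl1*, an integrin-β-like secreted protein, was at 0.272, 0.400 and 1.19 CPM in lung against 109, 80, 39.6, 59.8 and 66.0 CPM in pancreas (-7.10 ± 0.28, adjusted P = 5.23e-08). *Col11a1*, a minor fibrillar collagen of activated stroma, fell by 9.39 and *Ddr2*, a collagen receptor kinase, by 5.35 on the log2 scale. *Rnase1*, a secreted pancreatic ribonuclease, was at 24.7 to 95.6 CPM in pancreas with 2 counts over the 6 lung libraries.

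The EMT list moved with the fibroblast markers, whose levels are given above, and how much of it came from host fibroblasts was not tested. Of 18 genes, 9 were lower and 1 higher (*Twist2*, a mesenchymal factor, 1.15, named after its values were seen), at a median log2 fold change of -1.17. Without the 3 lung libraries with *mt-Co3* counts 13 were lower and 0 higher. Leaving out lung day 14 replicate 4 alone, which is among them, also gave 13 lower and 0 higher. The higher call was lost as well without pancreas day 7 replicate 1, lung day 7 replicate 2 or pancreas day 14 replicate 2. *Prrx1*, a mesenchymal homeobox factor, was at 1.75, 3.48 and 10.4 CPM in lung against 186, 145, 75.6, 122 and 142 CPM in pancreas (-4.89 ± 0.46). *Sparc*, a collagen-binding matrix protein, fell by 4.63 and *Thbs2*, thrombospondin 2, by 6.07 on the log2 scale. The EMT factors *Zeb1* and *Snai2* fell less, by 1.21 and 1.75 on that scale. *Zeb1* remained at 38.1 to 55.9 CPM in lung against 72.8 to 163 CPM in pancreas, with no overlap, and *Snai2* was at 1.13 to 2.44 CPM against 3.40 to 8.71 CPM. *Vim*, the mesenchymal filament vimentin, and *Cdh2*, N-cadherin, did not pass (-0.41 and -0.18).

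The TGFβ pathway showed lower ligand, receptor and latent-binding genes in lung, with no call among the signal-transducing *Smad* genes. Of 23 genes in the list, 10 were lower and 0 higher, at a median log2 fold change of -0.37. The ligand gene *Tgfb2* (ENSMUSG00000039239, chr1:186622792-186705989) was at 1.48, 9.73 and 11.9 CPM in lung and at 134, 115, 49.1, 70.4 and 83.8 CPM in pancreas, without overlap. Its log2 fold change was -3.47 ± 0.47 (adjusted P = 0.000422). *Tgfb3*, another ligand, was at 39.1 to 74.5 CPM against 149 to 357 CPM (-1.92 ± 0.23), whereas *Tgfb1* did not pass at 0.20. The type II receptor gene *Tgfbr2* was at 100, 148 and 187 CPM in lung against 507, 545, 235, 296 and 374 CPM in pancreas (-1.37 ± 0.20), and *Tgfbr1* stood at 0.14. *Ltbp1*, which tethers latent TGFβ to the matrix, fell by 1.35 on the log2 scale, from 255 to 478 CPM in pancreas to 111 to 163 CPM in lung.

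Targets and feedback genes of the pathway were divided. *Tgfbi*, a TGFβ-induced matrix protein, was at 32.3, 50.0 and 123 CPM in lung against 543, 426, 205, 366 and 424 CPM in pancreas (-2.76 ± 0.38). *Pmepa1*, a feedback inhibitor of SMAD signaling, fell by 1.13 on the log2 scale. The inhibitory *Smad7* (0.17) and *Smad6* (0.44), the corepressor genes *Ski* (-0.37) and *Skil* (0.28), and *Smad2* (0.01) and *Smad3* (0.29) gave no call. Of the 7 genes of a SMAD4-dependent fibrogenic program, a list the study drew from these samples and hence no independent evidence of direction, 5 were lower. *Col6a1*, a collagen VI chain, fell by 2.17, *Wisp1*, a matricellular protein of the Wnt pathway, by 2.60 and *Has2*, a hyaluronan synthase, by 1.78 on the log2 scale. *Ccbe1*, a matrix protein of lymphatic growth, was lower at -1.72 ± 0.50 (adjusted P = 0.0235), and its call was lost without pancreas day 7 replicate 2 (-1.63, adjusted P = 0.0539) or pancreas day 14 replicate 2 (-1.62, adjusted P = 0.0645). The fibroblast markers were lower in the same libraries, and their part in these differences was not tested.

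**Figure D2:**
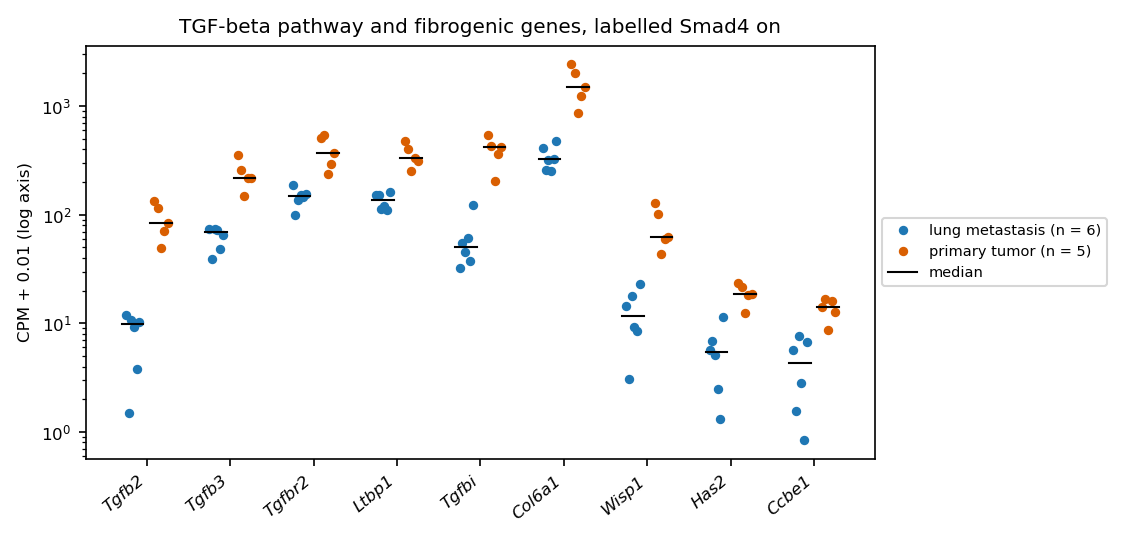
TGFβ pathway and fibrogenic genes in each library labelled Smad4 on, as CPM plus 0.01 on a log axis, with medians as bars. All 6 lung libraries lay below all 5 pancreas libraries for each gene drawn, with *Tgfb2* at 11.9 CPM or less in lung and 49.1 CPM or more in pancreas.

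Basement membrane genes were lower in part. Of 13 laminin, nidogen and collagen IV genes, 6 were lower and 0 higher. *Lama4*, the laminin chain of vessel and mesenchymal basement membranes, was at 1.24, 5.25 and 9.01 CPM in lung against 394, 304, 129, 217 and 250 CPM in pancreas (-5.62 ± 0.47). *Lamb1*, a laminin β chain, fell by 1.76 and *Nid2*, a nidogen that links laminin and collagen IV, by 3.06 on the log2 scale. *Col4a1* and *Col4a2*, the common collagen IV chains, fell by 1.12 and 1.33, and the call of *Col4a1* was lost without pancreas day 7 replicate 1 (-0.97), its highest library. Of 14 integrins, *Itgb5* (-1.56) and *Itga9* (-2.40) were lower. *Itgb6*, the chain of the epithelial integrin that activates latent TGFβ, was higher (1.29 ± 0.41, adjusted P = 0.0358), with overlap between 3.09 to 20.2 CPM in lung and 1.81 to 8.03 CPM in pancreas, and leaving out any of 7 of the 11 libraries ended that call (adjusted P 0.0522 to 0.0859).

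MHC class I genes were higher in lung metastases. Class I molecules carry peptides from inside the cell to its surface, where T cells and natural killer cells read them. NLRC5 drives their transcription, immunoproteasome subunits cut the peptides and TAP moves them into the endoplasmic reticulum. The promoters of the classical genes *H2-K1* and *H2-D1* and of the nonclassical *H2-Q4* and *H2-Q7* are shown here because these genes moved together and their windows share 1 stretch of letters, in capitals, that matches an interferon-stimulated response element (ISRE) pattern. The windows run from base -200 to -51 relative to the transcription start, on the gene strand, in RefSeq GRCm38.p6: *H2-K1* chr17:34000398-34000547 (minus strand), *H2-D1* chr17:35262894-35263043 (plus strand), *H2-Q4* chr17:35379417-35379566 (plus strand), *H2-Q7* chr17:35438955-35439104 (plus strand).
H2-K1: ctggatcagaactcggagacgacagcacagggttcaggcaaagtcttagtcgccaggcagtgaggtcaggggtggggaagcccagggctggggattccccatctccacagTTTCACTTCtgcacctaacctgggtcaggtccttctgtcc
H2-D1: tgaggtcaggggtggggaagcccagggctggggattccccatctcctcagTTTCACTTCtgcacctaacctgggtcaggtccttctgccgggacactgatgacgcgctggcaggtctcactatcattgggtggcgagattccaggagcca
H2-Q4: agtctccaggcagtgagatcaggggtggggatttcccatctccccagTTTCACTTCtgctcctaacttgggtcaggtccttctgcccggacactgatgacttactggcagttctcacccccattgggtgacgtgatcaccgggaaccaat
H2-Q7: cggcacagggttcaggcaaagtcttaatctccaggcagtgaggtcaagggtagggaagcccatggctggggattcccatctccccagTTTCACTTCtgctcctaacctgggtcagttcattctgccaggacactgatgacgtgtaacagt
The ISRE pattern searched was GAANNGAAA on either strand, and the capitals hold it on the reverse strand. It was added to the search after the values had been seen, along with a κB pattern. Of 13 MHC class I genes, 11 had a promoter window in the reference (250 bases before to 50 after the start), and 5 of those 11 (45.5%: *H2-K1*, *H2-D1*, *H2-Q4*, *H2-Q6* and *H2-Q7*) held the pattern, against 7.48% of the windows of all tested genes. The 13 were the 11 genes of the class I list plus *H2-Q6* and *H2-Q7*, added because they were among the higher genes with the lowest adjusted P, and of the list alone 3 of 9 windows held the pattern. These *H2* promoters are copies of one another in part, so the 5 matches are not independent.

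*H2-K1* (ENSMUSG00000061232, chr17:33996017-34000333), a classical class I heavy chain, was at 815, 862 and 1420 CPM in lung and at 199, 260, 327, 270 and 278 CPM in pancreas. Every lung library was above every pancreas library, with the 2 day 7 lung libraries highest (1420 and 1410 CPM), and the log2 fold change was 1.91 ± 0.20 (adjusted P = 8.48e-05). *H2-D1*, the other classical chain, was at 891 to 1690 CPM against 310 to 436 CPM (1.54 ± 0.19). *Nlrc5*, the transactivator, was at 6.22, 11 and 31.4 CPM against 2.93, 2.71, 3.27, 3.75 and 2.25 CPM (2.09 ± 0.35). *Tap1* of the peptide transporter rose by 1.39 ± 0.20, from 18.2 to 25.2 CPM in pancreas to 37.6 to 95.6 CPM in lung, and the immunoproteasome gene *Psmb8* by 1.49 ± 0.19. In all, 7 of 11 class I genes were higher and 0 lower, at a median of 1.49, and the summed level was 2880 to 4930 CPM in lung against 1370 to 1730 CPM in pancreas. The constant light chain *B2m* (0.33), *Tap2* (0.60), the loading factor *Tapbp* (0.25) and the nonclassical *H2-T23* (0.73) were not called. In the libraries labelled off the fold changes were 1.6 for *H2-K1*, 1.18 for *H2-D1* and 1.75 for *Nlrc5*.

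Among these genes *H2-Q7* and *H2-Q6*, nonclassical class I heavy chains of the Qa region, had the largest fold changes. *H2-Q7* was at 14.2, 30.8 and 94.2 CPM in lung against 0.266, 1.41, 0.272, 0.459 and 1.09 CPM in pancreas (5.96 ± 0.48, adjusted P = 2.31e-05), *H2-Q6* at 16.6 to 109 CPM against 0.545 to 2.37 CPM (4.85 ± 0.40) and *H2-Q4* at 46.5 to 117 CPM against 18.0 to 23.6 CPM (1.76 ± 0.17). *H2-Q6* and *H2-Q7* are near-identical copies, so their separate levels are uncertain. Lung cell markers moved with organ too, and their part in these differences was not tested. Within the 14 lung libraries of both labels *H2-Q7* and *Sftpc* had Pearson's r of -0.13 and Spearman's rho of -0.13 (permutation P = 0.655 and 0.648, adjusted 0.756 and 0.740). Within the 8 of these libraries without *mt-Co3* counts r was 0.18, and within the 6 with them it was -0.71. Of 7 class II genes 1, *H2-DMb1*, a peptide-loading chaperone, was called (1.80 ± 0.57, adjusted P = 0.035), and its call was lost without pancreas day 7 replicate 1 (1.51), pancreas day 7 replicate 2 (1.45), pancreas day 14 replicate 1 (1.72) or lung day 14 replicate 1 (1.82). Without the 3 lung libraries with *mt-Co3* counts 3 of the 7 class II genes were higher, at a median log2 fold change of 1.43 in place of 0.73. The class II sum was 1090 CPM in lung day 7 replicate 1, 96.7 to 271 CPM in the other 5 lung libraries and 103 to 240 CPM in pancreas.

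**Figure D3:**
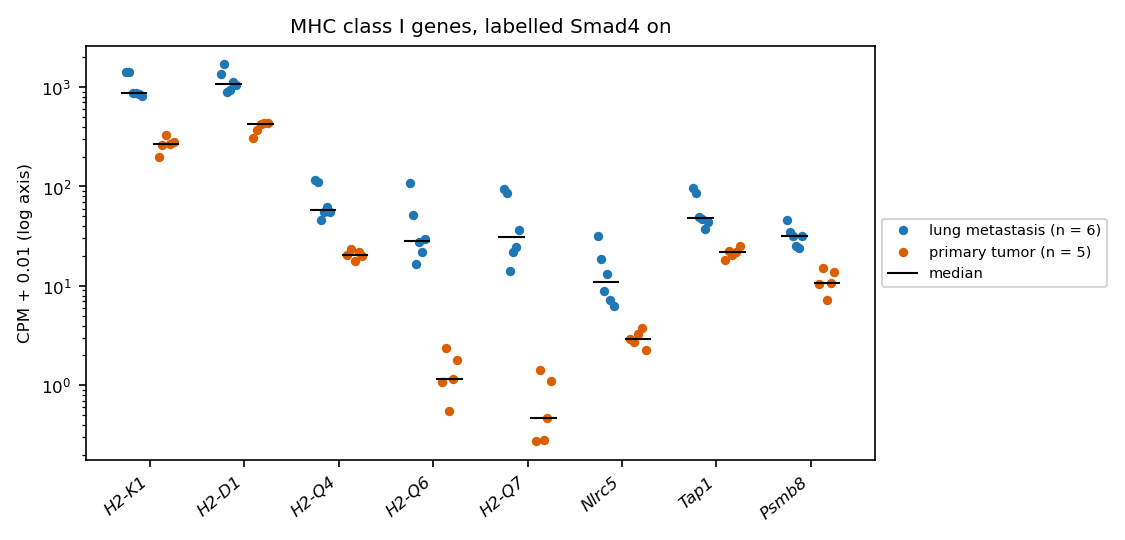
MHC class I genes in each library labelled Smad4 on, as CPM plus 0.01 on a log axis, with medians as bars. The 6 lung libraries were above the 5 pancreas libraries for each gene drawn, from 815 CPM or more against 327 CPM or less for *H2-K1* to 14.2 CPM or more against 1.41 CPM or less for *H2-Q7*.

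Interferon-stimulated genes outside this pathway showed few calls. Of 24 genes, 3 were higher and 0 lower, at a median log2 fold change of 0.25: the antiviral synthetase genes *Oas1a* (1.07 ± 0.22) and *Oas3* (1.21 ± 0.39) and the chemokine gene *Cxcl10* (1.05 ± 0.29). All 3 overlapped between the organs. Leaving out pancreas day 7 replicate 1 ended each of these calls (0.94, 0.94 and 0.83), and each was also lost without 1 or more other libraries. Over all leave-one-out fits that ended a call, values ran from 0.94 to 0.97 for *Oas1a*, 0.94 to 1.26 for *Oas3* and 0.83 to 0.98 for *Cxcl10*.

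Epithelial identity genes held more calls higher than lower in lung, beside the lung epithelial markers described above. Of 14 genes of duct and carcinoma identity, 5 were higher and 0 lower. *Krt8*, a keratin of simple epithelia, was at 2300, 3000 and 4920 CPM in lung against 861, 1310, 2160, 1340 and 1380 CPM in pancreas (1.26 ± 0.29, adjusted P = 0.00809), and *Sox9*, the duct and progenitor factor, at 220, 396 and 529 CPM against 141 to 174 CPM (1.21 ± 0.18). *Krt8* was highest in the 3 lung libraries with *mt-Co3* counts, and both genes were under the 2-fold threshold without those libraries (0.79 and 0.93). *Mmp7*, a matrilysin of ductal epithelium, was at 14.8, 65.5 and 129 CPM against 5.65 to 20.0 CPM (2.49 ± 0.49). *Onecut1*, a duct and progenitor transcription factor, was near or under 3 CPM in every library (0.866 to 3.02 against 0.0665 to 0.681 CPM, 2.47 ± 0.63). *Cftr*, the chloride channel of ducts, was the fifth (1.21 ± 0.36, adjusted P = 0.0281), and leaving out any of 7 of the 11 libraries ended its call (0.79 to 1.27, adjusted P 0.0498 to 0.0721).

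Of 18 foregut and lineage transcription factors, 8 were higher and 0 lower, at a median of 0.99. *Nkx2-1*, described above, is a factor of lung itself. *Sox21*, an airway and foregut factor, was at 2.72, 3.26 and 4.47 CPM in lung against 1.26, 1.58, 0.885, 1.07 and 1.32 CPM in pancreas (1.44 ± 0.26). *Hnf4g*, a nuclear receptor of gut epithelium, was at 3.34 to 16.0 CPM against 1.55 to 4.49 CPM (1.48 ± 0.37), and *Foxa3*, a forkhead pioneer factor, at 2.23 to 7.36 CPM against 0.961 to 2.75 CPM (1.19 ± 0.27). *Foxa2*, its relative, was at 65.4 to 136 CPM against 28.1 to 63.8 CPM (1.03 ± 0.25), and its value dropped under the threshold without pancreas day 7 replicate 1 (0.90), lung day 7 replicate 2 (0.81) or lung day 14 replicate 3 (0.97). The pancreatic factors *Pdx1* (0.25), *Nr5a2* (0.03) and *Gata6* (0.91) were not called.

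Of 16 gastric genes, 5 were higher and 1 lower, and of 25 junction genes 7 were higher and 1 lower. Both counts rested on single libraries. The higher gastric genes were 2 without pancreas day 7 replicate 2, lung day 7 replicate 1 or lung day 14 replicate 1 and 3 without pancreas day 7 replicate 1 or day 14 replicate 1, and the higher junction genes 2 without lung day 7 replicate 1 and 4 without lung day 14 replicate 1. Without the 3 lung libraries with *mt-Co3* counts they were 8 of 16 and 13 of 24. The trefoil factor *Tff3* was at 36.6, 68.6 and 240 CPM in lung against 12.2, 5.54, 16.1, 24.8 and 20.5 CPM in pancreas (2.48 ± 0.39), and the gastric mucin *Muc5ac* at 1.84 to 14.7 CPM against 0 to 2.53 CPM (3.12 ± 0.76). *Ctse*, cathepsin E of gastric mucous cells, ran the other way, at 9.52 to 50.0 CPM against 36.0 to 158 CPM (-2.24 ± 0.39). The remaining gastric calls were fragile: *Tff2*, another trefoil factor (1.20), the mucosal scavenger receptor *Dmbt1* (1.13) and *Anxa10*, a gastric annexin (1.02), each lost their call when any of 5, 5 and 6 of the 11 libraries, in turn, was left out. The tight junction claudin *Cldn3* was at 41.6, 48.6 and 91.2 CPM against 9.38, 8.37, 18.7, 12.6 and 11 CPM (2.26 ± 0.22, adjusted P = 5.97e-05), *Cldn23*, another claudin, rose by 1.63 ± 0.36, and *Cldn1* fell by 3.03 on the log2 scale. *Marveld3*, a tight junction protein (1.13), and *St14*, a membrane protease (1.14), lost their calls without lung day 7 replicate 1 (0.97 and 0.98). In the libraries labelled off, where 12.2% of all genes were higher, 12 gastric genes were higher and 0 lower, and 16 junction genes higher and 1 lower. The organ by label interaction called 0 of the 16 gastric genes in edgeR (7 at an unadjusted P under 0.05, median difference of log2 fold changes -1.64), and DESeq2 called 3 of them lower labelled on. It called 0 of the 27 junction genes in either tool (7 at an unadjusted P under 0.05 in each, median -0.31 in edgeR). With a score of the type 2 markers as a covariate, the gastric list gave 0 higher and 3 lower, the junction list 1 higher and 5 lower, and the duct list 4 higher and 2 lower. That score was 3.56 to 5.73 in lung and 1.91 to 2.25 in pancreas without overlap, so that it and the organ cannot be told apart.

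The KLF and RUNX families of transcription factors, which the study asked about as partners of SMAD4, showed 1 call in 15: *Klf9*, a glucocorticoid-responsive factor, was at 54.5, 86.2 and 113 CPM in lung against 41.2, 39.8, 42.9, 42.5 and 37.9 CPM in pancreas (1.02 ± 0.15, adjusted P = 0.000691). Its value went under the 2-fold threshold without lung day 7 replicate 1 (0.88), pancreas day 14 replicate 3 (0.99) or lung day 14 replicate 3 (0.99). Some others are given here after their values were seen. *Klf5*, an epithelial transcription factor gene, did not overlap between 173 to 234 CPM in lung and 89.5 to 158 CPM in pancreas, but at 0.75 ± 0.15 it was under the 2-fold threshold. *Klf4*, an epithelial differentiation factor, was at 170 to 328 CPM against 196 to 409 CPM (-0.28 ± 0.19, adjusted P = 0.284). *Runx1*, at 87.9 to 138 CPM against 105 to 149 CPM, gave -0.10 ± 0.11 (adjusted P = 0.518). These are mRNA levels of lung against pancreas. The study's case for KLF4 and RUNX1 rested on chromatin, protein staining and knockdown, mainly in liver and lung metastases. It reported no significant mRNA difference of either gene between those metastases and proposed regulation after transcription.

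Some targets of the hypoxia response were lower in lung. Of 28 genes in the list, 6 were lower and 0 higher, and 3 were lower without pancreas day 7 replicate 2, pancreas day 14 replicate 1 or lung day 14 replicate 1. *Car9* (ENSMUSG00000028463, chr4:43506966-43513729), the carbonic anhydrase most widely used as a hypoxia marker, was at 13.9, 21.5 and 31.2 CPM in lung and at 56.9, 79.7, 129, 127 and 138 CPM in pancreas. The groups did not overlap, and the log2 fold change was -2.25 ± 0.16 (adjusted P = 5.65e-06). *P4ha1*, a collagen prolyl hydroxylase induced by hypoxia, fell by 1.72 and *Adm*, adrenomedullin, by 1.67 on that scale. *Pdk1*, a brake on pyruvate oxidation (-1.03), *Egln3*, an oxygen sensor (-1.05), and *Ankrd37* (-1.64) were lower too, but lost their calls when any of 6, 4 and 8 of the 11 libraries, in turn, was left out. Glycolytic enzymes were not called (*Gapdh* 1.20, *Pgk1* 1.07, *Eno1* 1.04, *Ldha* 0.05), and the sum of the list followed the *mt-Co3* split: 25700, 18400 and 14600 CPM in the 3 lung libraries with counts, 6200 to 7730 CPM in the other 3 and 7090 to 14300 CPM in pancreas. Without those 3 libraries 11 of the 28 were lower and 0 higher, at a median log2 fold change of -0.82 in place of -0.03.

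Of 19 targets of the antioxidant factor NRF2, 4 were higher: *Gsta1*, a glutathione transferase, was at 1.75, 3.48 and 12.3 CPM in lung against 0.399, 0.170, 0.340, 0.612 and 0.544 CPM in pancreas (3.42 ± 0.47), *Osgin1*, an oxidative stress-induced growth inhibitor, rose by 1.21 ± 0.19 and *Slc7a11*, the cystine transporter, by 1.63 ± 0.43. The fourth, *Gsta3*, another transferase (1.16), lost its call when any of 6 of the 11 libraries was left out. Of 21 amino acid response genes the single call was *Phgdh*, which starts serine synthesis, and of 21 cholesterol synthesis genes it was *Idi1*, an isoprenoid isomerase. *Phgdh* was at 327, 216 and 236 CPM in the lung libraries with *mt-Co3* counts, 87.0 to 95.1 CPM in the other 3 and 57.2 to 79.8 CPM in pancreas (1.45 ± 0.37), and *Idi1* followed the same split. Without those libraries the fold changes were 0.48 and 0.71.

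Proliferation lists gave no call in either direction, 0 of 26 S phase and 0 of 26 G2 and mitosis genes in edgeR and in DESeq2, with medians of 0.11 and 0.11. At an unadjusted P under 0.05, 2 S phase genes were higher and 3 lower, and of the G2 and mitosis genes 1 was higher and 0 lower. The members with the lowest adjusted P were *E2f1*, the S phase activator (-0.76 ± 0.19), *Pold1*, a replicative polymerase subunit (0.71 ± 0.12), and *Cdc20*, an activator of mitotic exit (0.71 ± 0.20), all with adjusted P under the threshold but less than 2-fold. Without the 3 lung libraries with *mt-Co3* counts *E2f1* was called lower (-1.07). Labelled off, 0 of the 26 G2 and mitosis genes were called, at a median of -0.57. Their sums there were 944 to 1330 CPM in lung and 1080 to 2320 CPM in pancreas. The organ by label interaction called 0 of the 26 in edgeR, with 20 at an unadjusted P under 0.05 and a median of 0.67. Over all 15548 genes, 805 were higher and 1134 lower at that threshold. For the S phase list it was 3 of 26 and 0.22, with 1 gene lower labelled off (median -0.16). Of 20 immediate early and dissociation genes, *Fosl1*, an AP-1 subunit, was higher (1.06 ± 0.18), and its value went under the threshold without lung day 7 replicate 2 (0.97) or lung day 14 replicate 3 (0.93). Of 17 RAS-MAPK output genes, *Dusp5*, a phosphatase that restrains ERK, was higher (1.40 ± 0.26) and *Etv1*, an ETS factor, lower (-2.49 ± 0.30).

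Chemokines and acute phase genes made up a larger group, 10 of 20 higher and 1 lower, at a median of 1.30. *Lif*, a cytokine of the interleukin-6 family, was at 137, 191 and 357 CPM in lung against 95.6, 93.9, 61.3, 82.5 and 68.5 CPM in pancreas (1.44 ± 0.19, adjusted P = 0.000371). The neutrophil attractant *Cxcl2* was at 48.9, 66.2 and 96.8 CPM against 21.8, 17.7, 20.4, 37.4 and 28.1 CPM (1.45 ± 0.24), and *Ccl20*, which draws CCR6-bearing cells, at 7.61 to 31.4 CPM against 1.81 to 5.59 CPM (2.47 ± 0.44). *Cxcl15*, known as lungkine, is a product of lung epithelium, and was at 4.64 to 47.7 CPM against 0.792 to 3.75 CPM (3.08 ± 0.43). *Ccl7*, a monocyte attractant that fibroblasts also make, fell by 2.52 on the log2 scale. With the type 2 score as a covariate, 0 of the 20 were higher and 2 lower.

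**Figure D4:**
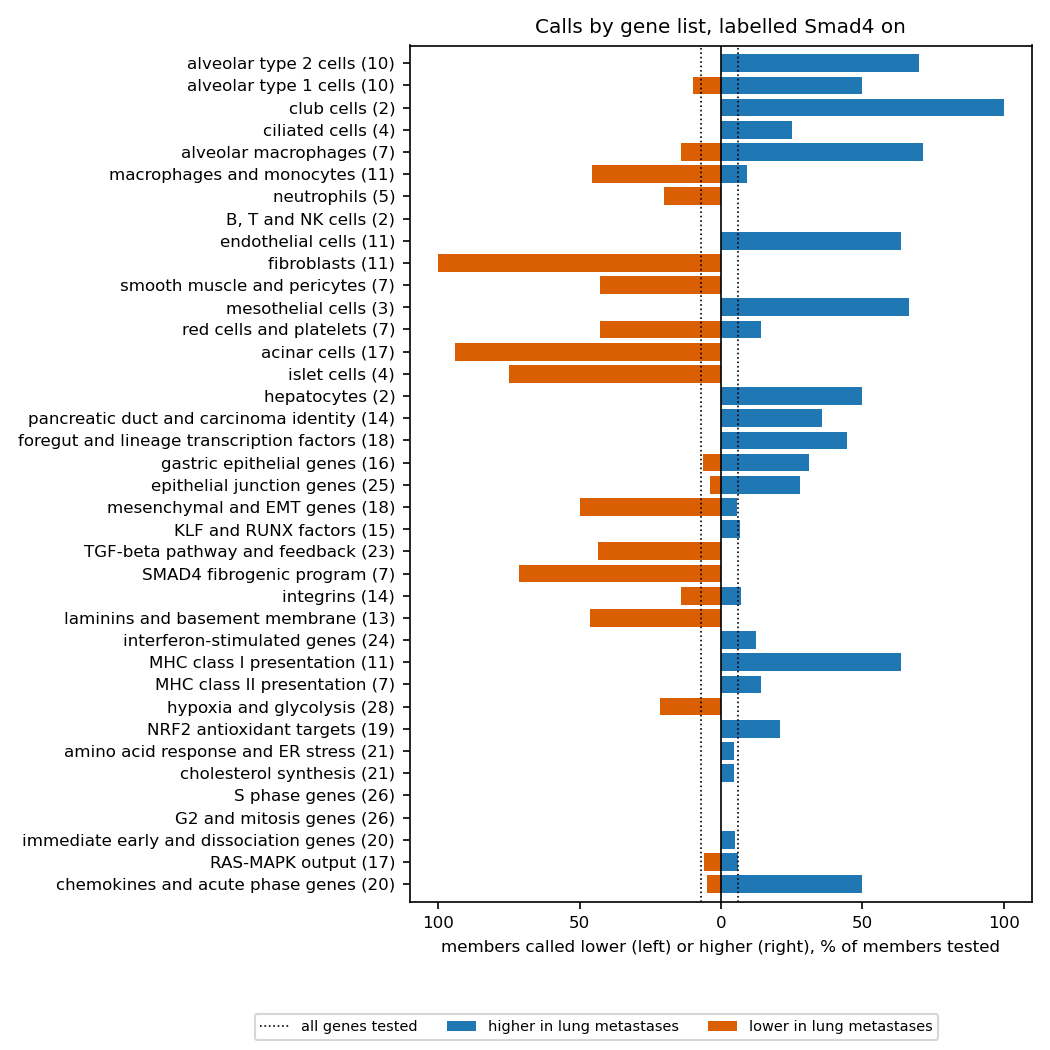
Share of the tested members of each gene list (number tested in brackets) called higher in lung metastases (bars to the right) or lower (bars to the left), in the libraries labelled Smad4 on; dotted lines mark the shares of all genes tested, 5.9% higher and 7.16% lower. The bars reach furthest left for fibroblast markers (11 of 11 lower) and acinar genes (16 of 17), MHC class I genes lie to the right (7 of 11 higher), and both proliferation lists have no bar.

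The genes with the lowest adjusted P among those higher in lung, separated in all 11 libraries, called in the libraries labelled off and belonging to no cell type list, included *Inmt* and the *H2-Q* genes. *Pim3*, a survival kinase, was at 260, 292 and 381 CPM in lung against 81.4, 87.1, 91.9, 81.1 and 63.9 CPM in pancreas (1.88 ± 0.14, adjusted P = 8.95e-06). *Slco2a1*, the prostaglandin transporter, was at 38.5, 49.8 and 87.3 CPM against 4.12, 9.10, 5.51, 5.28 and 3.89 CPM (3.28 ± 0.28). *Hpgd*, which degrades prostaglandins, was at 3.02 to 14.3 CPM against 0.0565 to 0.842 CPM (4.37 ± 0.42). *Bcam*, a laminin receptor, was at 267 to 334 CPM against 98.0 to 176 CPM (1.24 ± 0.12), and *Mafk*, a small MAF factor that pairs with NRF2, at 126 to 211 CPM against 58.7 to 71.2 CPM (1.25 ± 0.12). *Lypd8*, a protein of colonic epithelium, ranged widely within lung, from 53.7 to 416 CPM, and was at 3.28 to 10.2 CPM in pancreas (4.49 ± 0.41).

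To set these genes beside a lung cell marker, each was compared with *Sftpc* across the 14 lung libraries of both labels, as log2 of CPM plus 0.5. Days and labels were pooled, in r and in the permutations, so differences between those groups enter both. Of 15 genes, *Inmt*, a methyltransferase abundant in normal lung, was the one that passed: Pearson's r was 0.93 and Spearman's rho 0.95 (permutation P = 1e-05 each, the smallest that 100000 resamples can give, adjusted 0.00015), r was 0.89 without the 2 libraries farthest from the median of *Sftpc*, 0.94 in the 8 libraries without *mt-Co3* counts and 0.93 in the 6 with them. The 4 reference markers of lung cells gave r of 0.89 for *Sftpb*, 0.86 for *Ager*, 0.72 for *Nkx2-1* and 0.71 for *Scgb1a1*, the last 0.96 and -0.24 in the libraries without and with *mt-Co3* counts. In the other 14 genes r ran from -0.13 to 0.68, with adjusted permutation P from 0.0573 (*Hpgd*) to 0.866. *Pim3* was at 0.34 and *Slco2a1* at 0.13 over all 14, with *Pim3* at 0.69 and 0.66 within the libraries without and with *mt-Co3* counts. *Inmt* itself had 16.8 to 51.0 CPM in lung and 3 counts in the 5 pancreas libraries. An r that misses the threshold does not show that a gene is free of host RNA.

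**Figure D5:**
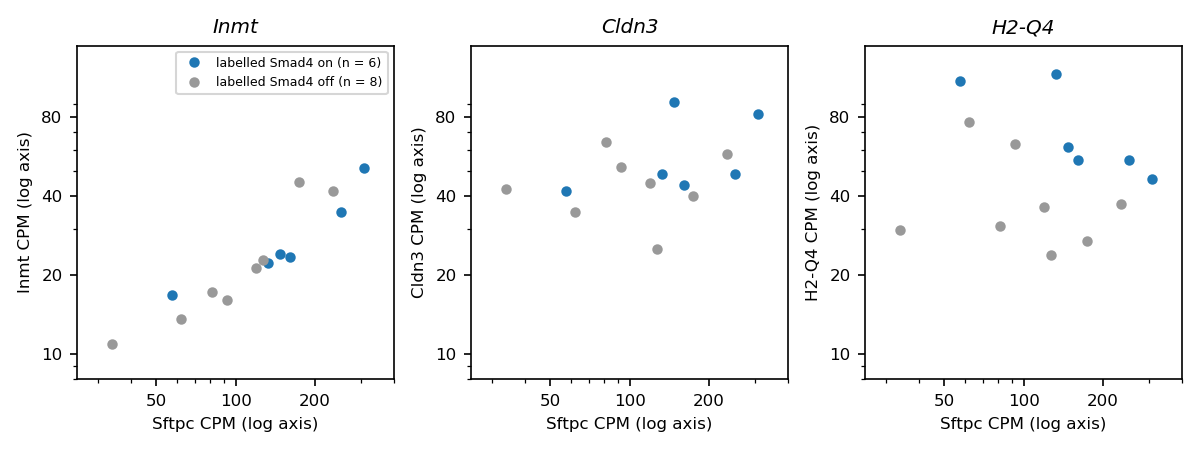
CPM of *Inmt*, *Cldn3* and *H2-Q4* (vertical log axes) against CPM of *Sftpc* (horizontal log axes) in the 14 lung libraries, 6 labelled on and 8 labelled off, each point a library. *Inmt* rose along with *Sftpc* (Pearson's r of 0.93 over the 14), while *Cldn3* (0.37) and *H2-Q4* (-0.09) were scattered.

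Liver metastases labelled on, 6 libraries from another host organ, are given beside these for orientation and without a comparison. *Sftpc* was at 0 to 0.389 CPM in them, *Col1a1* at 72.5 to 887 CPM, *H2-K1* at 694 to 1290 CPM, *Cldn3* at 74.1 to 373 CPM and *Pim3* at 133 to 451 CPM.

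The organ difference was tested for a dependence on the label in the 24 lung and pancreas libraries. Of 15548 genes, 15 (0.0965%) passed, 4 (0.0257%) with a larger value in the libraries labelled on and 11 (0.0707%) with a smaller one. *Vstm2b*, a membrane immunoglobulin-domain protein, was at 15.2 to 35.3 CPM in lung and 15.8 to 29.9 CPM in pancreas labelled on, and at 3.25 to 8.13 CPM and 0.289 to 0.845 CPM in those labelled off, for a difference of fold changes of -3.17 (adjusted P = 0.000229). *Matn4*, a cartilage-type matrix protein, was at 0.371 to 1.94 CPM in lung and 5.72 to 20.4 CPM in pancreas labelled on, and at or under 1.45 CPM in both organs labelled off (-4.02, adjusted P = 0.00218). *Slc5a3*, the myo-inositol transporter, was at 26.8 to 60.3 CPM and 15.2 to 22.9 CPM labelled on against 16.3 to 36.4 CPM and 32.2 to 49.6 CPM labelled off (1.57, adjusted P = 0.00907). *Itga7*, a laminin-binding integrin chain, differed by 1.90 (adjusted P = 0.0222), being -1.53 in the libraries labelled off and 0.31 in those labelled on. The number of such genes ran from 1 to 12 and from 7 to 46 in the 2 directions when single libraries were left out.

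A dependence of the organ difference on day was called for 1 gene of 14424 (0.00693%), with none in the other direction (0%): *Igtp*, an interferon-inducible GTPase. It was at 72.4 and 65.5 CPM in the 2 day 7 lung libraries, 16.9 to 21.3 CPM in the 4 of day 14 and 12.5 to 18.1 CPM in pancreas (-2.07, adjusted P = 0.0214). Without an adjustment 406 genes had a P under 0.05 in the one direction and 300 in the other, and DESeq2 called 10 and 15. The call of *Igtp* was lost when any of 8 of the 11 libraries was left out (adjusted P 0.0646 to 0.325), in the single fit of all groups (adjusted P = 1) and without the 3 lung libraries with *mt-Co3* counts (adjusted P = 0.0699).

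Promoter windows of 10671 tested genes were searched for short patterns on both strands, and a match is a description of letters, not of a bound factor. Of 586 windows of higher genes and 700 of lower genes, the RUNX letters TGTGGT or TGCGGT were in 23% and 24.6%, against 24.3% of all. The FOX letters TGTTTAC were in 4.44% and 3.71% (all, 3.21%), the KLF letters CCNCNCCC in 66.0% and 71% (all, 72.0%) and the AP-1 letters TGANTCA in 11.1% and 9.14% (all, 6.99%). The ISRE pattern was in 10.1% and 8.43% (all, 7.48%) and the κB pattern in 1.37% and 1.14% (all, 0.478%), while the HNF1 pattern was in 0 of them. No test was made of these shares.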

How the data were processed

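The authors trimmed 75-base single-end reads of stranded, polyA-selected libraries, aligned them to the mouse genome (GRCm38, mm10) and deposited raw counts per gene for 35 libraries (per the labels, Trimmomatic 0.36, STAR 2.5.3a and featureCounts 1.6.3). The strand setting of the counting was not given in the sources used here, so genes with an antisense partner could share reads. From these counts, genes passing a minimum of 10 counts (filterByExpr, 15 in total) were tested with the quasi-likelihood test of edgeR 4.0.16 (TMM scaling, day as a covariate) and called at over 2-fold and a Benjamini-Hochberg adjusted P under 0.05. Fold changes are log2 values. The SE beside them is the absolute log2 fold change divided by the square root of the quasi-likelihood F statistic. It was thus worked back from the test and is unreliable for genes near 0 counts in one organ. Levels are TMM-scaled CPM. DESeq2 1.42.0 was an alternative. In simulated data with 200 genes changed 4-fold, the test recovered 84.5% of them in the libraries labelled on, with 2 false calls, 90% in those labelled off, 72% for the organ by label and 49% for the organ by day interaction.

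The members, gene lists and tests were chosen with earlier results of these data known, so no count over a list is independent support. Of 570 listed genes, 569 matched. A few items that the naming rule below selects are not reported here. Genes are named by a rule: up to 4 of the most abundant members of each cell type list, up to 6 called members of each other list (the 2 with the lowest adjusted P where none was called), the 15 higher and 15 lower genes with the lowest adjusted P that were separated in all 11 libraries, called in the libraries labelled off and in no cell type list, and interaction genes. Motif letters were counted in RefSeq GRCm38.p6 promoter windows, and permutation tests used 100000 resamples over days and labels together. A floor of 3 counts bounds a level of 0 and covers counting error only. Same-numbered replicates of the 2 organs deviated with correlations of -0.18 to 0.21. With so few libraries per group, such values cannot decide whether equal numbers shared a line or batch. Samples were not paired in the main test. Other settings, including leaving out each library, are given with the closing observations.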

Additional observations from a re-analysis of the deposited data

Results flagged for a closer look

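Libraries far from the rest of their group were looked for in 534 groups of values, and 27 (5.06%) held one. Chance flags about 1 in 20 groups, so single entries here carry little weight. Lung day 14 replicate 4 stood high for stromal genes, with a fibroblast sum of 1640 CPM (176 to 617 CPM in the other 5 lung libraries), *Col3a1* at 1290 CPM (116 to 336 in all lung, 231 to 336 at day 14), *Tgfbi* at 123 CPM (32.3 to 61.4) and an S phase sum of 1480 CPM (1140 to 1170 in the other day 14 libraries). Lung day 7 replicate 1 had a class II sum of 1090 CPM (96.7 to 271), *H2-DMb1* at 26.3 CPM (3.68 to 6.28) and *Itgbl1* at 1.19 CPM (0.272 to 0.498). Lung day 7 replicate 2 had an alveolar macrophage sum of 369 CPM (54.0 to 139) and *Slc5a3* at 60.3 CPM (26.8 to 31.7).

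Lung day 14 replicate 1 was highest for *Hopx* (12.3 CPM, others 6.26 to 7.87), *Tff3* (240 CPM, others 36.6 to 112), *Anxa10* (42.9 CPM, others 6.62 to 19.3, and 15.8 to 19.3 at day 14) and the day 14 duct sum (20400 CPM, others 17300 to 17600), and lowest for the day 14 basement membrane sum (2240 CPM, others 3220 to 3410). Lung day 14 replicate 2 held *Chil3* at 12.2 CPM (others 0.398 to 4.62). Lung day 14 replicate 3 was the high library of day 14 for the KLF and RUNX sum (2660 CPM, others 2290 to 2340) and *Klf5* (234 CPM, others 173 to 183) and the low one for *Ccl7* (0.895 CPM, others 2.09 to 2.29).

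In the pancreas, day 7 replicate 1 was low for the interferon-stimulated sum (307 CPM, others 435 to 458) and high for *Etv5* (93.0 CPM, others 59.7 to 64.2), *Col4a1* (991 CPM, others 548 to 637) and *Col4a2* (522 CPM, others 281 to 340). Day 7 replicate 2 was high for *Cxcl10* (16.2 CPM, others 9.56 to 11.4), day 14 replicate 1 for *Phgdh* (79.8 CPM, others 57.2 to 63.1) and day 14 replicate 2 for *Muc5ac* (2.53 CPM, others 0 to 0.545).

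The organ difference itself differed between the labels for 15 genes by the interaction term of edgeR. For the 14 of them given here, the difference of log2 fold changes, labelled on minus labelled off, was positive for *Slc5a3* (1.57), *Itga7* (1.9), *Slc41a2* (1.34) and *B3gnt5* (4.97, all libraries labelled on at or under 0.716 CPM). It was negative for *Vstm2b* (-3.17), *Matn4* (-4.02), *Scube1* (-3.96), *Ism1* (-3.02), *Fbln1* (-2.64), *Tmigd1* (-2.34), *Lrrc26* (-1.79), *Ptpn22* (-1.46), *Ldhd* (-1.32) and *Id1* (-1.15), with adjusted P from 0.000229 to 0.0431 over the 15. The organ difference differed between the days for *Igtp* (-2.07, adjusted P = 0.0214). Causes were not tested.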

How the results depend on the processing

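With the 11 libraries labelled on, 851 genes were higher and 1033 lower. Leaving out 1 library gave 724 to 901 higher and 923 to 1074 lower, DESeq2 1049 and 1080, DESeq2 size factors 885 and 1016, and day 14 alone 666 and 792. Counts moved by over 1.5 times with no fold threshold (2078 and 2240), with at least 10 counts in every library (531 and 576), where fewer genes are tested, with the type 2 marker score as a covariate (1825 and 1899) and with day 7 alone (4 and 41, from 2 against 2 libraries). In the libraries labelled off, leaving out 1 library gave 1681 to 1885 higher and 1084 to 1159 lower, no fold threshold 3330 and 2885, at least 10 counts in every library 1130 and 658, and day 14 alone 996 higher. With the replicate number as a block, 730 genes were higher and 1003 lower labelled on, and 1704 and 1094 labelled off; the block rests on shared numbers only.

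The organ by label interaction was the least stable. Leaving out 1 library gave 1 to 12 higher and 7 to 46 lower, no fold threshold 7 higher, DESeq2 35 and 142, DESeq2 size factors 21 lower, at least 10 counts in every library 19 lower and the single fit of all groups 3 lower. Without the libraries with *mt-Co3* counts it gave 14 and 49, with *Xist* as a covariate 7 and 20, with the type 2 score 12 and 61, and with day 7 or day 14 alone 0 and 0 (664 and 1008, and 450 and 729, at an unadjusted P under 0.05). The organ by day interaction gave 0 to 6 higher and 0 to 10 lower when 1 library was left out, 10 and 15 in DESeq2, 0 lower in the single fit and 3 lower with the type 2 score.

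Of 131 named genes 121 were called, and 99 of those kept the call whichever library was left out. The settings that reversed a direction all had the type 2 score as a covariate, which does not overlap between the organs: *Chil3* -2.38, *Sftpd* -1.06, *Reg1* -1.71, *Itgb6* -1.83, *H2-DMb1* -0.29, *Cftr* -1.75, *Mmp7* -0.53, *Foxa3* -0.37, *Tfcp2l1* -2.45, *Tff2* -0.55, *Dmbt1* -1.3, *Anxa10* -0.47, *Elf3* -0.68, *Marveld3* -0.49, *St14* -1.37, *Gsta3* -1.54, *Cxcl15* -0.35, *Ccl20* -0.77 and *Cxcl5* -0.92 turned negative, and *Runx1* 0.24, *P4ha1* 0.02, *Adm* 0.24, *Egln3* 0.81, *Pdk1* 0.63, *Ankrd37* 2.49 and *E2f1* 0.22 turned positive. Without the lung libraries with *mt-Co3* counts, *Phgdh* (0.48), *Foxa2* (0.62), *Idi1* (0.71), *Krt8* (0.79), *Fosl1* (0.8), *Dusp5* (0.9) and *Sox9* (0.93) went under the fold threshold. The cause was not tested.

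With 6 and 5 libraries from unnamed animals and lines, P values cover the spread between libraries only. Host RNA from either organ could not be subtracted, and a gene held by both host and tumor cells cannot be assigned to one. Levels under 0.252 CPM rest on 3 counts or fewer in the shallowest library.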
